A study of Mus musculus with 2 samples.

Results

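RANKL, encoded by Tnfsf11, and the genes that act with it or against it were followed through the cells of alveolar bone, which anchors the teeth of the mouse jaw. The set comprised Tnfsf11, its decoy receptor osteoprotegerin (Tnfrsf11b), its receptor RANK (Tnfrsf11a), the receptor Lgr4, and Traf6, the adaptor that carries the signal of RANK. They were chosen by symbol, and all 5 were found among the 56893 gene symbols of both libraries. The tissue came from healthy C57BL/6J mice of 6 to 8 weeks in a study of orthodontic tooth movement. In the force group a nickel-titanium spring pulled the upper right first molar at 25 g, and in the control group the spring was fitted without force. On day 7 the bone up to 1 mm around the socket was collected, and the bone of 6 mice per group was combined before single-cell RNA sequencing. The labels tie neither of the 2 libraries to a group. They are therefore numbered 1 and 2, and no effect of force was estimated. The question followed here is which cell classes carried each of the 5 genes in both libraries.

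RANKL is a membrane-bound or shed ligand of the tumour necrosis factor family, and it drives precursors of the monocyte lineage to become osteoclasts, the cells that resorb bone. It acts through RANK and Traf6 on NF-kB and on Nfatc1, the transcription factor of osteoclast formation. Osteoprotegerin is a secreted receptor that binds RANKL and keeps it from RANK, and Lgr4, known as a receptor for R-spondins, has also been described as a second receptor for RANKL that restrains osteoclast formation. In the ligament that holds the tooth, RANKL and osteoprotegerin are known for their part in the remodelling that lets a tooth move.

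Library 1 held 77572847 unique molecular identifiers (UMIs, 1 for each captured RNA molecule) of named genes and library 2 held 116775367. After filtering, 9343 and 11772 cells remained, with medians of 3280 and 4392 UMIs per cell. They formed 26 cell classes, of which 22 took a name from marker genes. A further 3, without a name, go by the genes that lead them. The members and the pathway genes, except Prdm1, which is also a plasma cell marker, were kept out of the clustering, so no member shaped a class. Of the cell barcodes, 70 occurred as cells in both libraries. None of the 36 values recomputed without them moved, by the rule given in the closing section. There is 1 library for each possible group and cells are not replicates, so no test was made. Levels are CPM, the UMIs of a gene scaled to 1e6 UMIs of the class, with exact Poisson 95% intervals that cover counting error only.

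The classes that carried the 5 genes differed in part. Tnfsf11 and Tnfrsf11b lay in stromal and bone-forming cells, and Tnfrsf11a in osteoclast-like, macrophage-like and monocyte-like cells. Lgr4 lay mainly in stromal, bone-forming, pericyte or smooth muscle-like, endothelial-like and Schwann-like cells, and Traf6 in all classes. The same class was highest in both libraries for 5 of the 5 genes, which was so for 55.4% of the 13799 genes measured. That class was kept in 6 of 9 alternatives for Lgr4, where it rests on 5 UMIs in library 1. It was kept in 7 of 9 for Tnfsf11 and Tnfrsf11b and in 8 of 9 for Tnfrsf11a and Traf6. Traf6 alone exceeded the next class by 2-fold or more in each library, as did 11.0% of the measured genes.

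**Figure D1:**
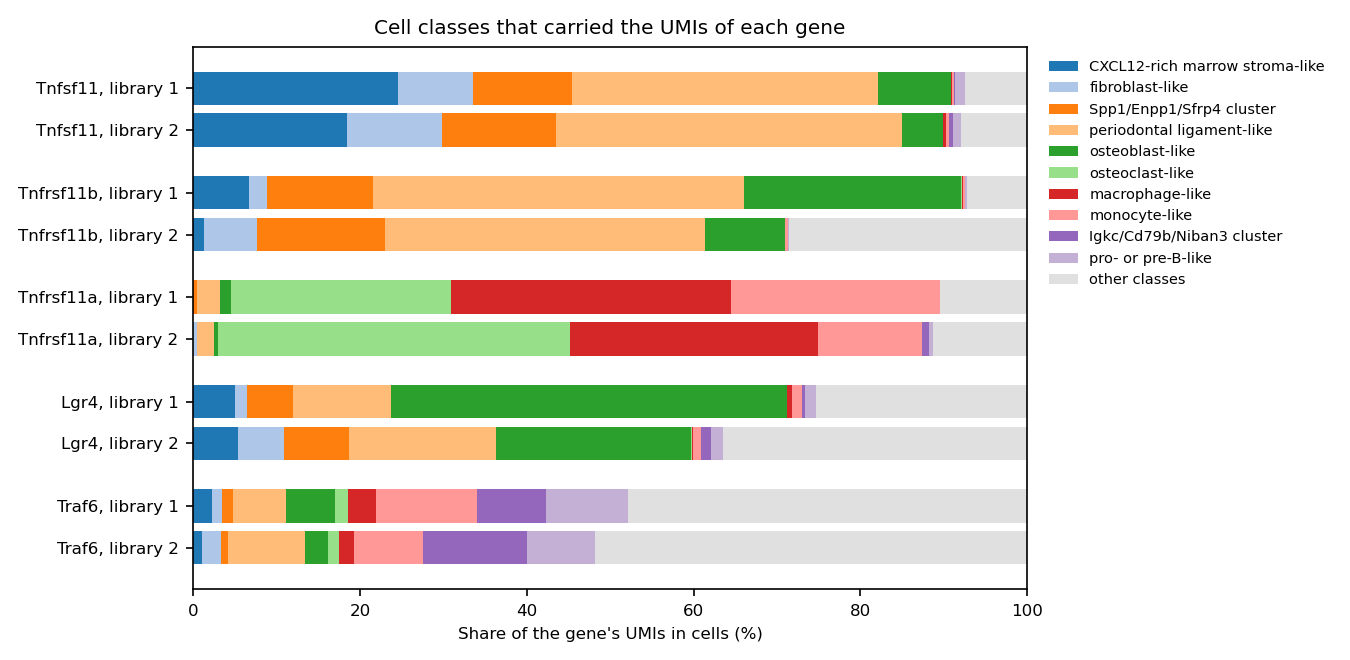
Share of the UMIs of each gene (x axis, percent of its UMIs in cells) by cell class and library, 1 bar for each gene and library. The 5 stromal and bone-forming classes drawn fill 90.9% and 89.9% of the Tnfsf11 bars and 92.1% and 70.9% of the Tnfrsf11b bars, while osteoclast-like, macrophage-like and monocyte-like cells fill 85.0% and 84.5% of the Tnfrsf11a bars.

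The regions upstream of the ligand gene and the receptor gene are shown. These genes were highest in different cell classes. RefSeq's promoter table (GRCm38.p6) held 4 of the 5 genes. The 250 bases before the start of Tnfsf11 lie at chr14:78308044-78308293 on the minus strand and those of Tnfrsf11a at chr1:105780473-105780722 on the plus strand. Capitals mark TATAA and GGGCGG on either strand.
Tnfsf11: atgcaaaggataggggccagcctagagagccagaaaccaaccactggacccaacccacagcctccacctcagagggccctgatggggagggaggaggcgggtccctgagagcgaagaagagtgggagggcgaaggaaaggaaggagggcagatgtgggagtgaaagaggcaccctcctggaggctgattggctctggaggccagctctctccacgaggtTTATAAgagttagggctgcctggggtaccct
Tnfrsf11a: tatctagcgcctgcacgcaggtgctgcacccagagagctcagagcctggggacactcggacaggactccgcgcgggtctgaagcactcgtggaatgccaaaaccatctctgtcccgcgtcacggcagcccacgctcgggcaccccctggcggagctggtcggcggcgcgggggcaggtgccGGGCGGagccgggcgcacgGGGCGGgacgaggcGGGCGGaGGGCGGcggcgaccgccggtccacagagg
The Tnfsf11 region held TATAA from 30 bases before the start, overlapping the same motif on the other strand, and no GGGCGG. The Tnfrsf11a region held GGGCGG at 4 places and no TATAA. Of 32851 promoters of this length, 22.8% held TATAA, 32.7% held GGGCGG and 4.09% held GGGCGG at 4 or more places. The share of G and C was 60.4% for Tnfsf11, 73.6% for Tnfrsf11a, 55.6% for Lgr4 and 56.4% for Traf6, against a median of 52.4% over all promoters. These matches are descriptions of the letters, and binding of a factor was not measured.

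Tnfsf11, the ligand, was highest in CXCL12-rich marrow stroma-like cells. It stood at 297 CPM (269 to 328) in library 1 and 260 CPM (234 to 288) in library 2, from 413 and 362 UMIs. These 280 and 282 cells are like the perivascular stroma that feeds blood stem cells: Cxcl12, its chemokine, stood at 1057 and 871 CPM there, against 39.5 and 26.1 CPM in all other cells, and Adipoq at 117 and 63.9 CPM, against 0.493 and 0.207 CPM. Fibroblast-like cells came next in library 1, with 228 CPM (193 to 267), but held 98.9 CPM (86.3 to 113) in library 2. A cluster led by Spp1, Enpp1 and Sfrp4 held 178 and 154 CPM. Dmp1, a matrix gene of osteocytes, stood at 931 and 1067 CPM in this cluster, but Sost, another osteocyte gene, had 1 UMI in library 1 and none in library 2, and the cluster was not named. Periodontal ligament-like cells had a lower level, 118 and 84.7 CPM, but they were 833 and 1376 cells and held the most Tnfsf11 UMIs, 36.6% and 41.5%. Osteoblast-like cells stood at 20.5 CPM (17.4 to 24.1) and 17.6 CPM (14.3 to 21.6), so their interval lay below that of periodontal ligament-like cells in both libraries.

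The interval of CXCL12-rich marrow stroma-like cells lay above that of the next class in both libraries, narrowly so in library 1. In library 2 the Spp1 cluster lay above fibroblast-like cells, while in library 1 the intervals of these classes overlapped. When cells with over 10% mitochondrial UMIs were left out, fibroblast-like cells were highest in library 1. At a coarser clustering the marrow stroma was not a class of its own and periodontal ligament-like cells were highest.

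Among blood cells Tnfsf11 was low. T-like cells held 20.6 CPM (12.6 to 31.8) and 15.05 CPM (8.01 to 25.7), from 20 and 13 UMIs. Stem and progenitor-like cells held 14.6 and 12.2 CPM, and pro- or pre-B-like cells 11.1 and 10.5 CPM. In these 3 classes the interval lay above the most that free RNA in the suspension could give, which was 1.80 and 1.64 CPM for T-like cells. Osteoclast-like cells had no Tnfsf11 UMI in either library. Over the 20 classes outside the stromal and bone-forming ones the median level was 2.67 and 2.58 CPM.

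A UMI of Tnfsf11 was found in 150 of 280 and 129 of 282 CXCL12-rich marrow stroma-like cells, 53.6% and 45.7%, at medians of 4327 and 4406.5 UMIs per cell. In erythroid-like cells, which should lack the gene, it was found in 0 of 154 cells, which allows a share of up to 1.95%, and in 8 of 831 cells, 0.963%, at medians of 2459 and 5025 UMIs. After each cell was thinned to 1000 UMIs, the share with Tnfsf11 was 20.1% (15.6 to 25.3, Clopper-Pearson 95% interval) and 16.0% (11.9 to 20.8) in CXCL12-rich marrow stroma-like cells. It was 18.9% and 15.2% in the Spp1 cluster, 9.01% and 7.12% in periodontal ligament-like cells, and 2.82% and 2.38% in osteoblast-like cells. Thinning left out 2 cells of CXCL12-rich marrow stroma-like cells, 5 of the Spp1 cluster, 23 of periodontal ligament-like cells and 26 of osteoblast-like cells in library 1, and at most 1 cell of each in library 2.

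**Figure D2:**
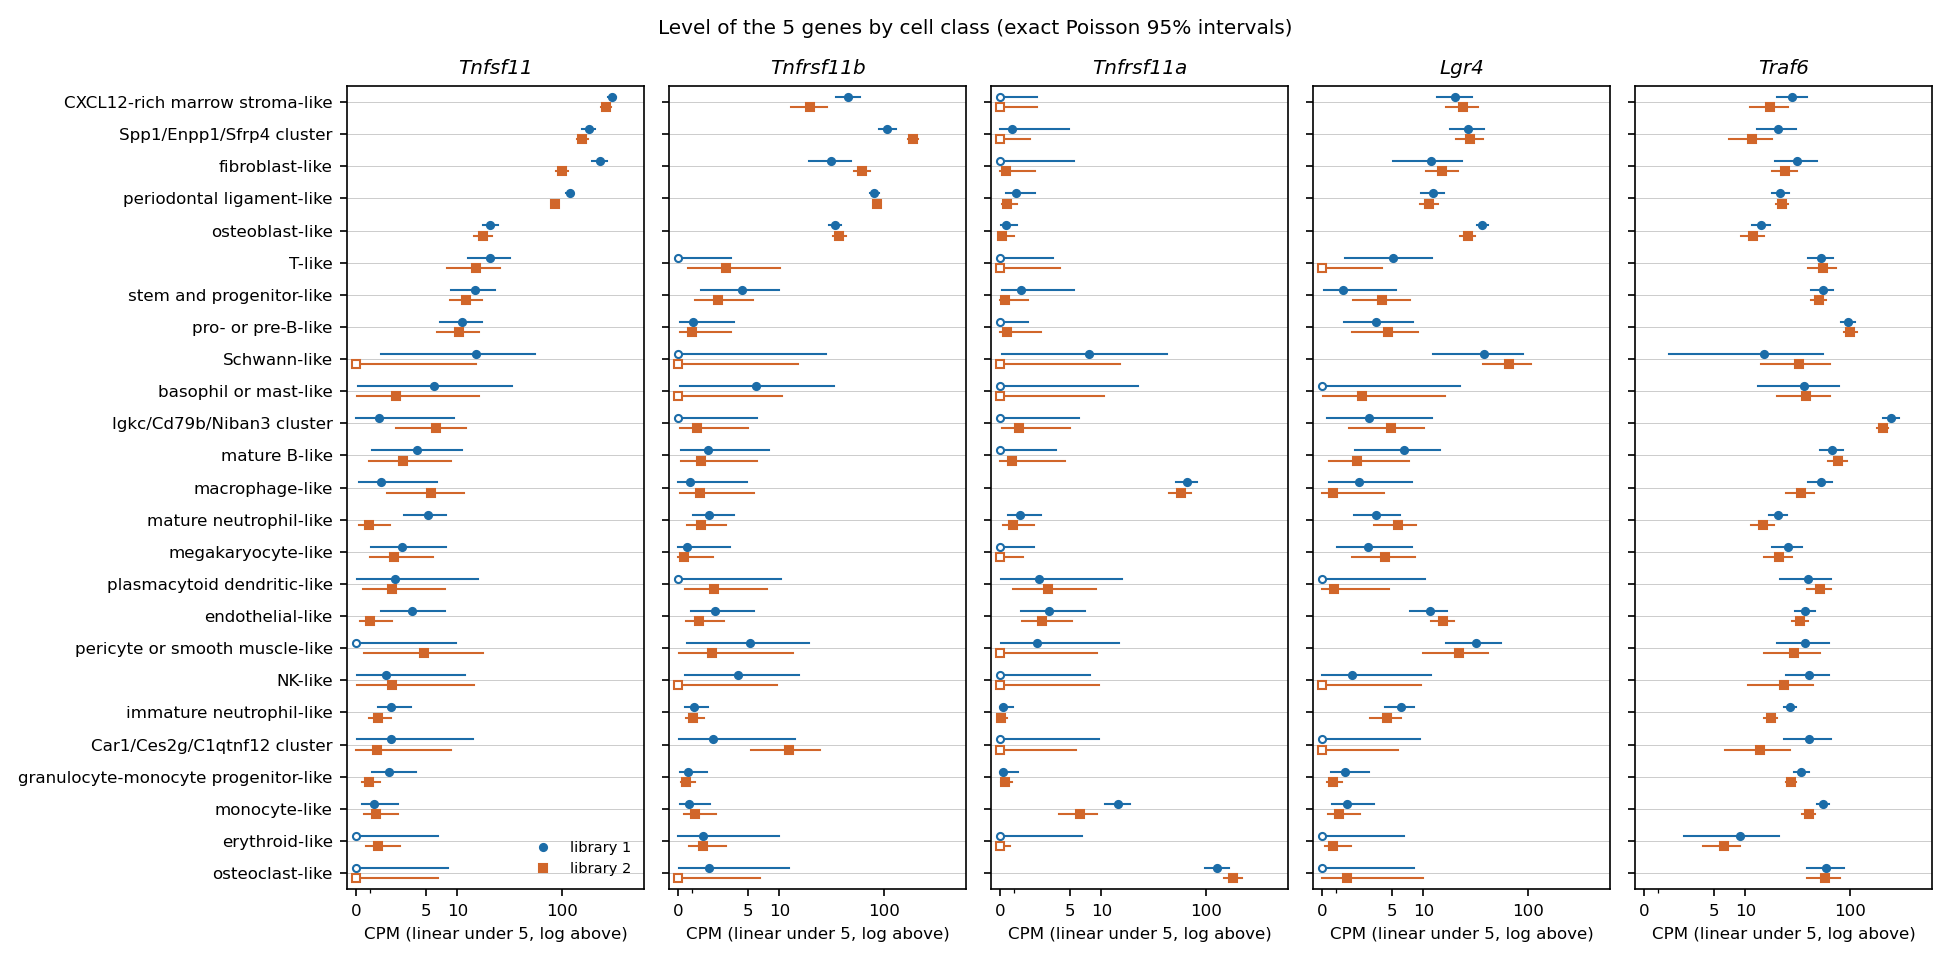
Level of each gene (x axis, CPM, linear under 5 and logarithmic above) in 25 cell classes, with 1 point for each library, bars for exact Poisson 95% intervals and open points for 0 UMIs. Tnfsf11 and Tnfrsf11b share the upper classes, which run in a different order for each gene. Tnfrsf11a is highest in osteoclast-like cells, then in macrophage-like and monocyte-like cells.

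Tnfrsf11b, the decoy receptor, had its highest ranked level in the Spp1 cluster, at 107 CPM (88.6 to 128) in library 1 and 188 CPM (168 to 209) in library 2. Periodontal ligament-like cells followed with 80.0 CPM (72.5 to 88.1) and 85.8 CPM (80.0 to 91.9), below the Spp1 cluster by their intervals in both libraries, narrowly so in library 1. At a coarser clustering without a separate Spp1 cluster they were highest, and with each cell classed by its own markers the highest were fibroblast-like cells in library 1 and osteoblast-like cells in library 2. Osteoblast-like cells held 34.1 and 37.3 CPM. CXCL12-rich marrow stroma-like cells, highest for the ligand, held 45.4 CPM (34.9 to 58.1) and 19.4 CPM (12.8 to 28.2) of the decoy receptor. Fibroblast-like cells held 31.3 CPM (19.4 to 47.8) and 61.8 CPM (51.9 to 73.0).

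Tnfrsf11b was uneven among its carriers: the cell with the most had 32 UMIs in library 1 and 85 in library 2, while 276 of 436 and 416 of 797 cells with the gene had a single UMI. In the Spp1 cluster its 120 and 326 UMIs came from 48 and 81 cells. The intervals of its levels and of the ratios below take each UMI as independent. They do not cover this unevenness, so a narrow gap between intervals does not set classes apart.

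The balance of ligand to decoy receptor differed between classes. It is given as Tnfsf11 UMIs per Tnfrsf11b UMI, which compares classes with each other and not molecules within a cell, because the 2 genes may be captured unequally. In CXCL12-rich marrow stroma-like cells it was 6.56 (5.02 to 8.69) in library 1 and 13.4 (9.06 to 20.6) in library 2. In periodontal ligament-like cells it was 1.47 (1.30 to 1.67) and 0.988 (0.895 to 1.09), and in the Spp1 cluster 1.67 (1.32 to 2.11) and 0.822 (0.697 to 0.969). Osteoblast-like cells had 0.602 (0.487 to 0.741) and 0.473 (0.367 to 0.606). The marrow stroma thus stood above and osteoblast-like cells below periodontal ligament-like cells in both libraries, with intervals that did not overlap. Fibroblast-like cells had 7.29 (4.60 to 12.1) in library 1 and 1.60 (1.29 to 2.00) in library 2, and so did not keep their place.

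The size of these ratios moved with the limits on cells and with the classes. For CXCL12-rich marrow stroma-like cells it lay between 5.04 and 25.3 in library 1 and between 11.2 and 24.6 in library 2 over the alternatives run. With each cell classed by its own markers, the ratio of osteoblast-like cells in library 1 was 1.28 (1.15 to 1.44), above 1, and that of periodontal ligament-like cells 2.97. The libraries differ in cells, in pool of mice and perhaps in treatment, which cannot be told apart.

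**Figure D3:**
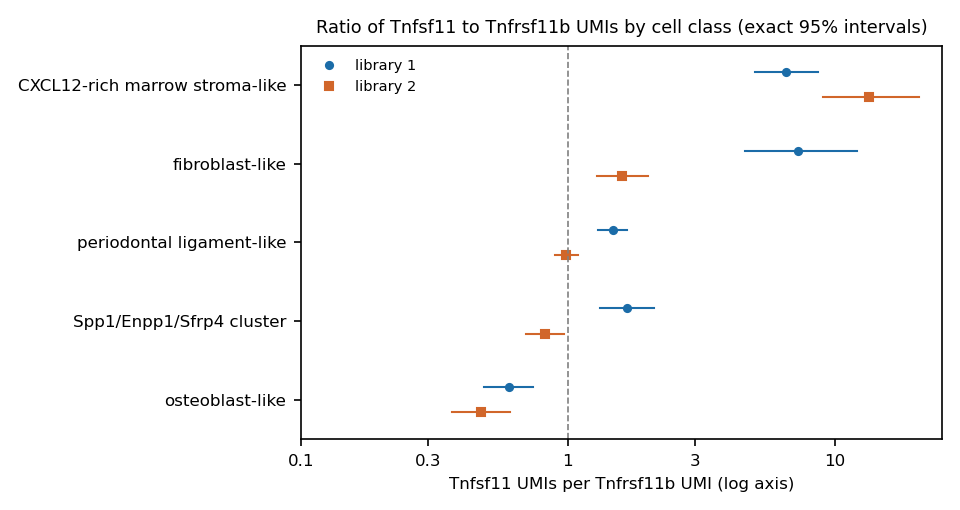
Tnfsf11 UMIs per Tnfrsf11b UMI (x axis, logarithmic) in 5 classes with at least 200 UMIs of both genes together over both libraries, with exact 95% intervals. CXCL12-rich marrow stroma-like cells lie at 6.56 and 13.4, osteoblast-like cells at 0.602 and 0.473, and the dashed line marks a ratio of 1.

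Whether single cells carried both genes was looked at within classes. Among periodontal ligament-like cells as counted, 30.2% (24.3 to 36.5) of those with Tnfsf11 also had Tnfrsf11b in library 1, against 13.3% (10.7 to 16.3) of those without, and in library 2 it was 30.8% (26.3 to 35.7) against 20.4% (17.9 to 23.1). Cells with Tnfsf11 were deeper, with medians of 7274.5 and 7385 UMIs, against 4921 and 5640.5 UMIs in cells without it. After thinning to 1000 UMIs the shares were 5.48% (1.51 to 13.4) against 5.02% (3.56 to 6.85) in library 1 and 9.18% (4.29 to 16.7) against 7.04% (5.70 to 8.59) in library 2, and the intervals overlapped widely. At 2000 UMIs they were 14.7% (8.78 to 22.4) against 8.10% (6.07 to 10.5) and 11.9% (7.43 to 17.8) against 11.8% (9.92 to 13.9). Both depths are 1 random draw each from the same cells, so they are not independent. The share was the higher one in cells with Tnfsf11 at both depths and in both libraries, with overlapping intervals, and the difference itself was not tested. Over 9 alternatives it lay between -0.43 and 6.55 percentage points in library 1, so its direction was not always kept. In library 2 it lay between 0.124 and 2.40 percentage points.

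In the Spp1 cluster the thinned shares were 10.8% (3.03 to 25.4) among cells with Tnfsf11, against 12.6% (7.86 to 18.8) without, in library 1 and 4.26% (0.520 to 14.5) against 12.2% (8.51 to 16.8) in library 2. At 2000 UMIs they were 2.44% (0.0617 to 12.9) against 15.3% (9.30 to 23.0) and 15.6% (7.76 to 26.9) against 21.5% (16.0 to 28.0). Both depths are again 1 random draw each from the same cells. The share was the lower one in cells with Tnfsf11 at both depths and in both libraries, with overlapping intervals. As counted it was 17.2% (9.98 to 26.8) against 28.9% (20.8 to 38.2) in library 1. In library 2 it went the other way as counted, 31.5% (23.5 to 40.3) against 22.5% (16.7 to 29.3). Cells with Tnfsf11 were deeper there too, with medians of 5055 and 5972 UMIs, against 3271 and 3637.5 UMIs. Among osteoblast-like cells thinned to 1000 UMIs, 0 of 22 cells with Tnfsf11 had Tnfrsf11b in library 1 and 1 of 15 in library 2, too few to compare. Over all cells as counted, 120 and 217 cells held both Tnfsf11 and Tnfrsf11b, while 5 and 1 held both Tnfsf11 and Tnfrsf11a. Tnfrsf11a itself was found in only 128 and 120 cells. It was in 0.695% (0.226 to 1.62) of cells with Tnfsf11 against 1.43% (1.19 to 1.70) without it in library 1. In library 2 it was in 0.107% (0.00270 to 0.593) against 1.10% (0.911 to 1.31). Thinned to 1000 UMIs, these shares were 0.418% against 0.277% and 0% against 0.175%, from 1 and 0 cells with both genes.

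**Figure D4:**
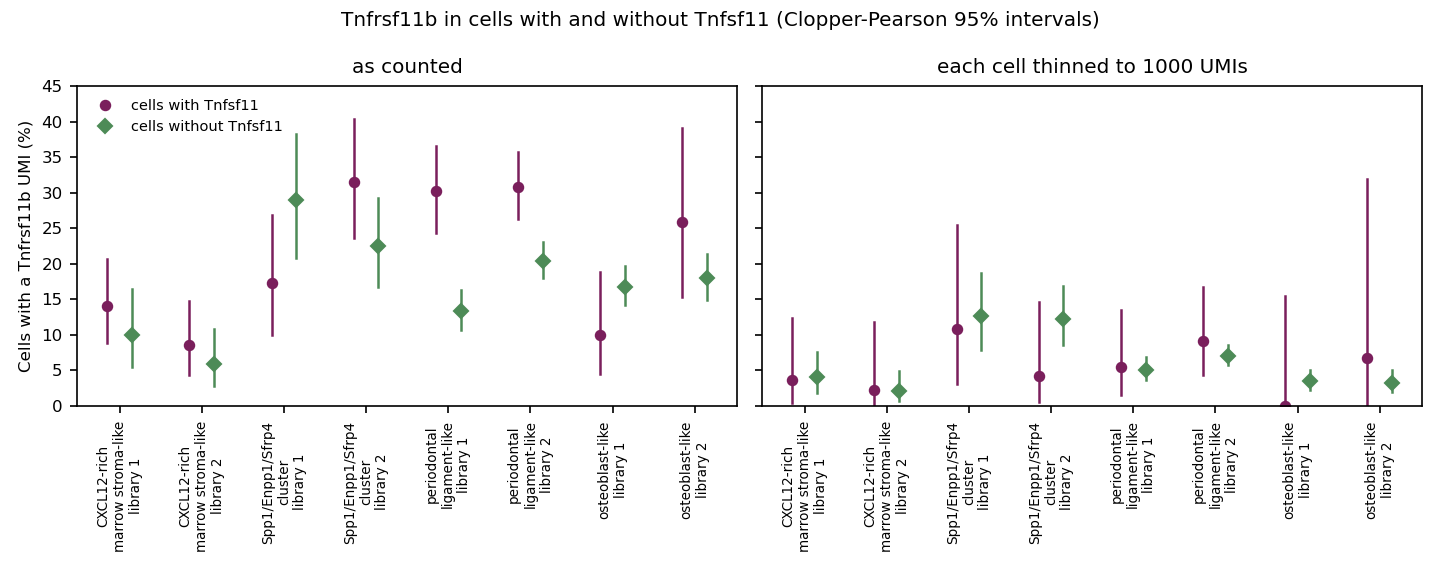
Percent of cells with a Tnfrsf11b UMI (y axis) among cells with Tnfsf11 (circles) and without it (diamonds) in 4 classes and both libraries, as counted on the left and thinned to 1000 UMIs per cell on the right, with Clopper-Pearson 95% intervals. In periodontal ligament-like cells the gap seen as counted, 30.2% against 13.3% in library 1, is 5.48% against 5.02% after thinning.

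Tnfrsf11a, the receptor, was highest in osteoclast-like cells, at 127 CPM (96.7 to 165) from 58 UMIs in library 1 and 180 CPM (146 to 218) from 101 UMIs in library 2. The class was small, with 47 and 32 cells, but all 8 of its markers were raised, among them Ctsk, a collagen-cleaving protease, at 13413 and 32625 CPM, against 151 and 142 CPM in all other cells. Macrophage-like cells held 65.4 CPM (51.4 to 82.2) and 56.8 CPM (44.4 to 71.7), and monocyte-like cells 14.3 CPM (10.8 to 18.6) and 6.31 CPM (4.25 to 9.002). The intervals of these 3 classes did not overlap within either library. That of monocyte-like cells overlapped the interval of the class below it in both libraries. This class was Schwann-like cells in library 1, at 7.56 CPM (0.191 to 42.1) from 1 UMI. In library 2 it was plasmacytoid dendritic-like cells, at 3.46 CPM (0.943 to 8.86) from 4 UMIs. Osteoclast-like cells held 26.4% and 42.3% of the Tnfrsf11a UMIs, macrophage-like cells 33.6% and 29.7%, and monocyte-like cells 25.0% and 12.6%. When 10% of cells were removed as doublets, osteoclast-like cells were no longer among the ranked classes and macrophage-like cells were highest. Averaged over cells in place of summed UMIs, the level of osteoclast-like cells was 288 CPM in library 2.

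Outside these 3 classes Tnfrsf11a was close to absent from the counts. Endothelial-like cells had 3.55 and 3.02 CPM, from 8 and 12 UMIs, above the free-RNA limit in both libraries. CXCL12-rich marrow stroma-like cells and T-like cells had 0 UMIs in both. A UMI of Tnfrsf11a was found in 20 of 47 and 22 of 32 osteoclast-like cells, 42.6% and 68.8%, at medians of 3457 and 4574 UMIs, and in none of the 154 and 831 erythroid-like cells, which allows a share of up to 1.95% and 0.361%. Among macrophage-like cells with Tnfrsf11a, 20 of 40 also had Traf6 in library 1 and 9 of 41 in library 2, against 22.8% and 16.0% of those without it, as counted. The cells with Tnfrsf11a were deeper, with medians of 11532 and 8757 UMIs, against 6202 and 5298.5 UMIs. Thinned to 2000 UMIs, Traf6 was found in 1 of 10 cells with Tnfrsf11a (10.0%, 0.253 to 44.5), against 6.31% (2.57 to 12.6) without it, in library 1 and in 0 of 16 against 10.5% (5.99 to 16.7) in library 2, too few to compare.

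Lgr4 was low and spread over several tissues. Schwann-like cells, which wrap nerve fibres, had the highest level in both libraries, but from 5 UMIs at 37.8 CPM (12.3 to 88.2) in library 1 and from 16 UMIs at 65.1 CPM (37.2 to 106) in library 2. Their markers were plain, with Sox10, a transcription factor of the neural crest, at 265 and 138 CPM, against 0.140 and 0.0128 CPM in all other cells. Up to 69.3% of the UMIs of Schwann-like cells in library 2 could be free RNA, which could give 6.52 CPM of Lgr4. Osteoblast-like cells held 36.5 CPM (32.2 to 41.2) and 26.5 CPM (22.3 to 31.2), and with 263 and 144 UMIs they held the most of this gene, 47.6% and 23.3%. In library 1 the intervals of Schwann-like and osteoblast-like cells overlapped, and in 3 of 9 alternatives osteoblast-like cells came first there.

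Lgr4 had several other carriers. In the pericyte or smooth muscle-like class it stood at 31.7 CPM (16.4 to 55.5) and 21.9 CPM (10.0 to 41.7), from 12 and 9 UMIs. The Spp1 cluster held 26.7 and 27.7 CPM and CXCL12-rich marrow stroma-like cells 20.2 and 23.7 CPM, and the intervals of these classes overlapped. Endothelial-like cells held 11.5 CPM (7.53 to 16.9) and 15.3 CPM (11.7 to 19.7), below the Spp1 cluster by their intervals in both libraries. Periodontal ligament-like cells held 12.4 CPM (9.58 to 15.8) and 11.4 CPM (9.34 to 13.7), below osteoblast-like cells by their intervals in both libraries. Lgr4 was lower but not absent in blood cells. Immature neutrophil-like cells held 6.12 CPM (4.51 to 8.11) and 4.66 CPM (3.48 to 6.10), from 48 and 52 UMIs. Outside the stromal, bone-forming, pericyte or smooth muscle-like and Schwann-like classes, 18 classes remained, endothelial-like cells included. The interval lay above the free-RNA limit in 8 and 9 of these. Osteoclast-like cells, on which Lgr4 has been described as a receptor for RANKL, had 0 UMIs of 455439 in library 1 and 1 UMI of 562428 in library 2. The interval allows up to 8.10 and 9.91 CPM, so a low level was not detectable at this depth.

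The relatives of Lgr4 had other highest classes. Lgr6 was highest in the Spp1 cluster, at 25.8 CPM (17.3 to 37.1) and 28.2 CPM (20.9 to 37.3), with 14.7 CPM (11.6 to 18.4) and 18.8 CPM (16.1 to 21.7) in periodontal ligament-like cells, overlapping in both. Lgr5 was highest in a B-lineage cluster led by Igkc, Cd79b and Niban3, at 48.6 CPM (32.6 to 69.8) and 29.5 CPM (21.3 to 39.9), with 41.1 and 23.0 CPM in pro- or pre-B-like cells, whose intervals overlapped those of the cluster. Of their ligands, the R-spondin genes Rspo1, Rspo2, Rspo3 and Rspo4 did not reach 20 UMIs in some class of each library. Rspo3 had 10 and 25 UMIs in fibroblast-like cells and 17 and 12 in CXCL12-rich marrow stroma-like cells. Rspo1 had 18 and 59 UMIs in periodontal ligament-like cells.

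Traf6, the adaptor, was detected in all 26 classes of both libraries and was highest in the B lineage. The Igkc cluster held 245 CPM (207 to 288) from 146 UMIs and 204 CPM (181 to 229) from 290 UMIs, which was 2.57-fold and 2.04-fold above the next class. That cluster, with 318 and 689 cells, raised 7 of the 8 markers of mature B cells, but pro- or pre-B markers were among its leading genes and it was not named. Pro- or pre-B-like cells held 95.4 CPM (81.7 to 111) and 100 CPM (86.3 to 115), and mature B-like cells 66.6 and 75.7 CPM. Osteoclast-like cells held 59.3 CPM (39.1 to 86.3) and 56.9 CPM (38.9 to 80.3), whose interval overlapped those of mature B-like and T-like cells. The lowest ranked levels were 8.93 and 6.23 CPM, in erythroid-like cells, and the 5 stromal and bone-forming classes held between 14.2 and 31.3 CPM in library 1 and between 11.5 and 23.7 CPM in library 2. At a coarser clustering the B-lineage cluster held 137 and 145 CPM and its lead over pro- or pre-B-like cells was 0.52 and 0.54 on the log2 scale, in place of 1.36 and 1.03. With each cell classed by its own markers this cluster did not exist and pro- or pre-B-like cells were highest.

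Traf6 lies next to the recombinase genes Rag1 and Rag2 on mouse chromosome 2, with Iftap beyond Rag2 in the order of RefSeq's gene table. These neighbours were looked at after the values of Traf6 were known. Prr5l and Commd9 were counted along with them and are not reported by class. Rag1, which took part in the clustering, stood at 496 and 379 CPM in the Igkc cluster, against 192 and 148 CPM in pro- or pre-B-like cells and 4.37 and 11.8 CPM in mature B-like cells. Iftap stood at 267 and 244 CPM in the Igkc cluster, against 109 and 83.2 CPM in pro- or pre-B-like cells and 5.46 and 7.57 CPM in mature B-like cells. Rag2 stood at 67.1 and 65.3 CPM in the Igkc cluster, against 68.8 and 54.4 CPM in pro- or pre-B-like cells, and the intervals of these classes overlapped in both libraries. Within the Igkc cluster, thinned to 1000 UMIs, Traf6 was found in 28.6% (19.9 to 38.6) of cells with Rag1, against 16.8% (11.9 to 22.8) without it, in library 1 and in 18.7% (13.4 to 24.9) against 17.2% (14.0 to 20.9) in library 2, and the intervals overlapped. Thinned to 2000 UMIs, which left 110 and 269 cells, the shares were 51.0% (36.6 to 65.2) with Rag1 against 22.0% (12.3 to 34.7) without it in library 1, where the intervals did not overlap, and 33.0% (24.1 to 43.0) against 22.9% (16.7 to 30.04) in library 2, where they did. As counted they were 43.0% (34.5 to 51.8) against 20.2% (14.7 to 26.8) in library 1 and 34.9% (29.3 to 40.8) against 25.3% (21.2 to 29.8) in library 2. At 2000 UMIs the pro- or pre-B-like class had Traf6 in 32.8% (21.6 to 45.7) of cells with Rag1 against 13.3% (9.05 to 18.7) without it in library 1 and in 23.4% (13.8 to 35.7) against 14.3% (9.85 to 19.8) in library 2. At 1000 UMIs the shares in that class were 10.0% against 9.65% and 10.7% against 12.3%. For Rag2 the shares differed less in the Igkc cluster at 1000 UMIs in library 1. There Traf6 was in 22.2% (6.41 to 47.6) of cells with Rag2 against 20.7% (16.0 to 25.9) without it. In library 2 it was in 21.4% (8.30 to 41.0) against 17.5% (14.6 to 20.6). At 2000 UMIs the Rag2 shares were 41.7% against 34.7% and 38.2% against 25.1%, with overlapping intervals. The counting step is not given in the sources used here, and whether reads of one neighbour were counted for another was not tested.

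**Figure D5:**
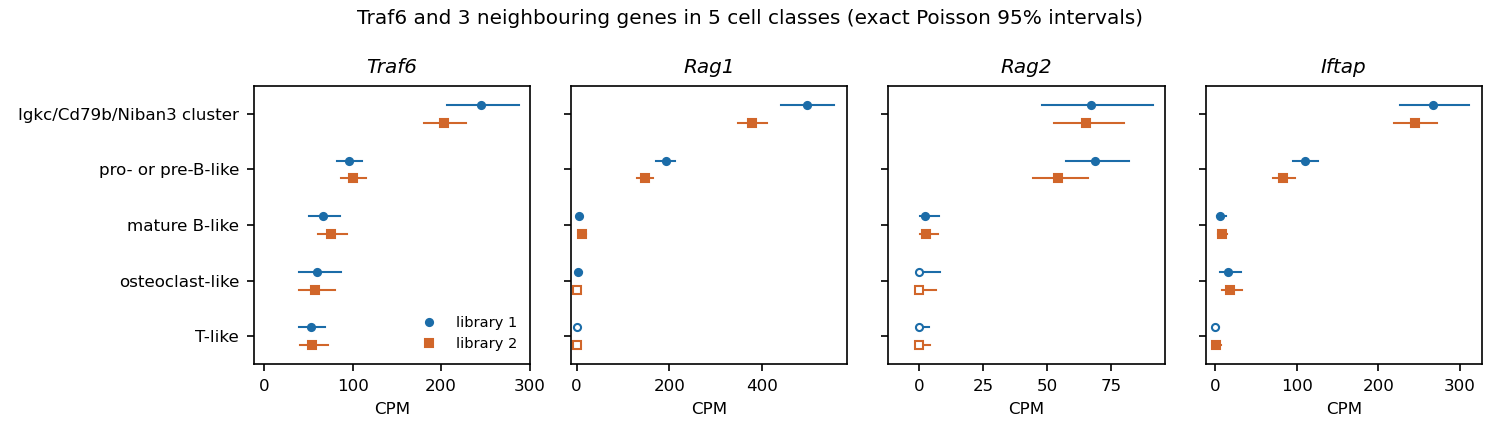
Level (x axis, CPM) of Traf6 and the neighbouring genes Rag1, Rag2 and Iftap in 5 cell classes, with 1 point for each library, exact Poisson 95% intervals and open points for 0 UMIs. Traf6, Rag1 and Iftap are highest in the Igkc cluster, and Traf6 alone keeps a level of 52.5 and 54.4 CPM in T-like cells, where Rag1 and Rag2 have no UMI.

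The wider pathway list held 53 genes, the members included, of which 48 were measured with at least 20 UMIs in some class of each library. The same class was highest in both libraries for 27 of them, set against 55.4% of all measured genes. A lead of 2-fold or more over the next class in each library was held by 3, Traf6, Nfatc1 and Tnfrsf10b, against 11.0% of all measured genes. Nfatc1, the transcription factor that RANK signalling induces, was highest in osteoclast-like cells at 905 CPM (819 to 996) and 523 CPM (465 to 586). The next classes were the Spp1 cluster with 291 CPM in library 1 and NK-like cells with 255 CPM in library 2. Tnfrsf10b, the mouse death receptor for the ligand TRAIL, which osteoprotegerin also binds, had its highest level, 149 and 132 CPM, in endothelial-like cells. Tnfsf10, the gene of TRAIL itself, had no shared highest class: stem and progenitor-like cells led with 53.6 CPM in library 1 and endothelial-like cells with 59.9 CPM in library 2.

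By role, 4 of 4 measured ligand, decoy and receptor genes had a shared highest class, which 55.4% of all measured genes had. The same was so for 3 of 5 other ligands and receptors that touch the system, 6 of 13 adaptors and kinases, 6 of 8 transcription factors, 1 of 6 inhibitors of osteoclast formation, 5 of 8 inducers that act on RANKL in stroma and 2 of 4 shedding enzymes. Among the inducers' receptors, Pth1r, the receptor of parathyroid hormone, was highest in osteoblast-like cells at 406 CPM (392 to 421) and 405 CPM (389 to 423), a class with little Tnfsf11. CXCL12-rich marrow stroma-like cells held 219 and 222 CPM of it. Vdr, the vitamin D receptor, had no shared highest class. It stood at 110 and 113 CPM in CXCL12-rich marrow stroma-like cells, 103 and 179 CPM in the Spp1 cluster, 109 and 101 CPM in osteoblast-like cells, and 50.6 and 24.4 CPM in periodontal ligament-like cells.

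The genes whose levels across the 25 ranked classes were most like those of each member were found by the lower of the Pearson correlations in the 2 libraries, on log2(CPM + 1). These are descriptions over classes that share libraries and depth. For Tnfsf11 they were Tmem200c, Insyn1, Col8a2, Wif1 and Nol3, with a lower r between 0.847 and 0.876, and its r with Tnfrsf11b was 0.727 in library 1 and 0.833 in library 2. For Tnfrsf11b they were Serpinf1, Lum, Six4, Ccn4 and Dnm3os, between 0.887 and 0.899. For Tnfrsf11a they were Gm48065, Cd68, Atp6v1b2, Atp6v1a and 4930430E12Rik, between 0.815 and 0.867. Cd68 encodes a lysosomal protein of macrophages, and Atp6v1a and Atp6v1b2 encode parts of the proton pump. Lgr4 was most like Tcaf1, Arhgef17, Nrep, Parva and Creb3l1, between 0.835 and 0.853, and Traf6 most like Syvn1, Ddx54, Cox7a2l, Snx2 and Fam168b, between 0.806 and 0.875. With a pseudocount of 10 in place of 1, 7 of these 25 genes were found again.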

How the data were processed

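The deposited matrices hold raw counts of UMIs per gene and barcode for 2 unfiltered libraries, as the authors deposited them. Per the labels' protocols, the bone was minced, digested for 60 min and freed of red cells by lysis, and tissue of 6 mice was pooled per group. Aligner and counting program: not given in the sources used here. FastQC 0.11.9 and the builds GRCh38 and mm10 are listed by the submitters' processing notes with no role. Features without a symbol, 42693 of 99819, were left out and held 0.602% and 0.431% of the UMIs.

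A barcode was a cell if it reached the larger of 500 UMIs and the inflection of the rank curve, 822 and 965 UMIs, had at least 200 genes and at most 20% mitochondrial UMIs. The automatic Scrublet call marked 0 and 1 cells and had not worked, so the top 5% of cells by score, 492 and 620, were dropped, and doublets may remain. Both libraries were clustered together with scanpy 1.11.5 and leidenalg 0.10.2 on 2000 variable genes, with 30 principal components, 15 neighbours and resolution 1.0. The pathway list was left out of these genes, except Prdm1, which is also on a marker list. A cluster took the name of a marker list if at least 3 markers and 50% of the list were raised 3-fold and its 10 leading genes held no more markers of another list. Monocyte-like cells include an interferon-gene-led cluster of 83 and 3 cells. Of the unnamed classes, 1 is not reported here. Ranking took classes of 30 or more cells in each library.

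For each class and library the UMI sum was scaled to CPM, with exact Poisson intervals. Shares of cells have Clopper-Pearson intervals, the share allowed by a count of 0 is 3 counts of the total, and cells were also thinned to 1000 UMIs. A gene was measured with at least 20 UMIs in some class of each library. The free-RNA limit takes all haemoglobin, or all S100a8 and S100a9, of a class as free RNA with the profile of barcodes under 100 UMIs. The counting steps were also run on simulated counts drawn independently, unlike the uneven UMIs of Tnfrsf11b, and the outcome is not given here. The named genes are the 5 members in every class, pathway genes that led the next class 2-fold in each library, a fixed set of 10 pathway genes, and the 5 genes most like each member. Members, lists and limits were chosen with earlier results of these data known. Alternatives changed the UMI and mitochondrial limits, doublet removal, resolution, clustering by library, free RNA, averaging, thinning depth, pseudocount and the measured minimum, and 3 were added after the data were seen.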

Additional observations from a re-analysis of the deposited data

How the results depend on the processing

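Of 357 alternative values, 304 stayed and 53 moved. A value stayed if it lay within the counting interval of the main value. Numbers of genes have no such interval and stayed if they lay within a fixed fold of the main number. No paired analysis was possible because there is 1 library per possible group and the labels give no group. The causes were not tested. The ratio of Tnfsf11 to Tnfrsf11b in CXCL12-rich marrow stroma-like cells was 17.1 and 23.7 with at least 1000 UMIs per cell, 11.3 and 24.6 at resolution 2.0, and in library 1 alone moved to 9.96 with at most 10% mitochondrial UMIs, 10.3 with no doublets removed, 12 with 10% removed and 25.3 with cells classed by their own markers. In fibroblast-like cells it was 15.9 and 2.63 with at most 10% mitochondrial UMIs, 2.81 in library 2 with no doublets removed and 1.70 in library 1 by own markers. In periodontal ligament-like cells it was 2.34 and 1.40 at resolution 0.5, and 1.93 with each library clustered alone and 2.97 by own markers in library 1. In osteoblast-like cells it was 0.984 and 0.699 at resolution 0.5, 0.809 in library 1 at resolution 2.0, and 1.28 (library 1, above 1 in place of below) and 0.669 by own markers, and in the Spp1 cluster 1.21 in library 1 at resolution 2.0. Tnfsf11 in CXCL12-rich marrow stroma-like cells was 363 CPM with at least 1000 UMIs per cell, 330 CPM with 10% of cells removed as doublets, 335 CPM at resolution 2.0 and 238 CPM with each library clustered alone in library 1, 229 CPM with no doublets removed in library 2, and 351 and 192 CPM by own markers. Its log2 ratio over the Spp1 cluster in library 1 was 1.04 with at least 1000 UMIs, 1.27 at resolution 2.0, 0.34 with each library clustered alone and 0.48 as a mean over cells. As a mean over cells, the Tnfrsf11b log2 ratio of the Spp1 cluster over periodontal ligament-like cells was 0.82 and 0.83 with a level of 158 CPM in library 2, osteoclast-like Tnfrsf11a in library 2 was 288 CPM with a log2 ratio of 2.31 over macrophage-like cells, and the Traf6 log2 ratio of the Igkc cluster over pro- or pre-B-like cells was 0.72 in library 2. At resolution 0.5 Traf6 in that cluster was 137 and 145 CPM with log2 ratios of 0.52 and 0.54. Thinned to 2000 UMIs, Tnfsf11 was in 35.6% and 33.2% of CXCL12-rich marrow stroma-like cells, Tnfrsf11b in 20.1% of the Spp1 cluster in library 2 and Tnfrsf11a in 24.1% of osteoclast-like cells in library 1. By own markers the Lgr4 log2 ratio of Schwann-like over osteoblast-like cells was 2.12 in library 2. The pathway genes with a 2-fold lead numbered 5 in place of 3 with no doublets removed, at resolution 0.5, with each library clustered alone and with small classes not ranked. With a pseudocount of 10, 7 of the most alike genes were shared. Values of classes that did not form at resolution 0.5 or by own markers could not be had. Taking off free RNA and leaving out shared barcodes moved no value. Depth limits the small classes most: Lgr4 in Schwann-like cells rests on 5 and 16 UMIs.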
